A study of Mus musculus with 7 samples.

Results

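The conventional myosin heavy chains are the motor proteins that pull on actin in every kind of muscle and in cells that are not muscle. Their genes were looked up by symbol: Myh6, Myh7 and Myh7b of the heart, Myh1, Myh2 and Myh4 of skeletal muscle, Myh11 of smooth muscle, and the non-muscle genes Myh9, Myh10 and Myh14. Of these 10 genes 7 had a row among the 15967 rows of the deposited table. Of the 7, 6 had a value in both libraries, and all 6 passed a minimum mean of 1 FPKM (fragments per kilobase of transcript, scaled to the mapped fragments). Myh6 had a value in the control library only. The skeletal muscle genes Myh1, Myh2 and Myh4 were not analysed here.

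The libraries came from poly-A RNA of the sinoatrial node, the pacemaker region of the right atrium, of Sv129 mice 3 weeks after birth. All mice carried floxed alleles of Baf250a, symbol Arid1a, whose protein belongs to the BAF complex that moves nucleosomes. The Cre library was made 6 days after tamoxifen from mice that also carried Hcn4CreERT2, a tamoxifen-activated recombinase driven from the pacemaker channel gene Hcn4. The control library of day 6 came from floxed mice without Cre, and values are given below as without and with Cre. There was 1 library per genotype, so nothing below could be checked against replicates and nothing was tested. Neither the number of mice behind a library nor tamoxifen in the control mice is given in the labels. The other 5 libraries, of a time course with the same Cre, were not analysed here. The title of the series concerns repression of a contractile programme in the node, and heavy chains are the motor of that programme.

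Arid1a had 34.9 FPKM without Cre and 12.3 FPKM with Cre. The libraries also differed in markers of other tissues and in the sex-linked gene Xist, which had 0.379 FPKM without Cre and 93.2 FPKM with Cre. All 18 T cell and thymus markers were at least 2-fold lower in the Cre library (summed 3510 and 10.7 FPKM), and all 12 lung and airway markers were at least 2-fold higher (summed 4197 and 18658 FPKM). Of 12 pacemaker markers 10 reached the minimum, with 9 above equal expression, 1 at least 2-fold higher (the calcium channel gene Cacna1g, at 1.57 and 4.37 FPKM) and a median log2 ratio of 0.51, or -0.42 when ratios were centred on heart muscle markers. Hcn4 itself was weak, at 0.605 FPKM without Cre and 0.719 FPKM with Cre, and Isl1 and Shox2, transcription factors of the node, had 1.69 and 1.20 FPKM without Cre and 2.02 and 1.26 FPKM with Cre. Markers of heart muscle cells were abundant in both: Actc1, cardiac actin, had 1846 FPKM without Cre and 4155 FPKM with Cre. FPKM from bulk tissue cannot tell fewer cells of a type from less RNA per cell, and this holds for every heavy chain below.

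A heavy chain joins an ATP-burning motor domain to a long coiled-coil tail, and it works as a dimer that carries essential and regulatory light chains. In the mouse heart Myh6, the fast alpha chain, dominates after birth, while Myh7, the slower beta chain, prevails in the fetal ventricle and returns under stress. The BAF ATPase Brg1 is known to act with histone deacetylases on the promoters of both genes, and Mhrt, a long non-coding RNA transcribed against Myh7, is known to bind Brg1. The smooth muscle chain Myh11 marks contractile vessel walls. Myh9, Myh10 and Myh14 encode non-muscle myosins IIA, IIB and IIC, which drive cell shape, adhesion and division.

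The cardiac heavy chain genes also carry microRNAs in their introns, and the mature sequences are shown because the family's 3 cardiac genes can be read as host transcripts of related microRNAs. Levels of the microRNAs themselves were not analysed here. In GRCm38 the hairpin of miR-208a lies at chr14:54949060-54949142 in intron 29 of 38 of Myh6, that of miR-208b at chr14:54975700-54975776 in intron 31 of 40 of Myh7, and that of miR-499 at chr2:155622880-155622958 in intron 19 of 41 of Myh7b. All 3 are on their host's strand and overlap no exon of it. Sequences are from RefSeq (GRCm38.p6), with the seed, bases 2 to 8, in capitals:
mmu-miR-208a-3p: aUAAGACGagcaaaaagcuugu
mmu-miR-208b-3p: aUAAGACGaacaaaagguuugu
mmu-miR-499-5p: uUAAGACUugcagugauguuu
miR-208a-3p and miR-208b-3p share the seed and differ at 3 of 22 bases (G10A, A16G and C18U, with the base of miR-208a first and positions counted from the 5′ end). The seed of miR-499-5p differs from theirs at 1 of 7 bases, G8U. Among 1738 mature mouse sequences in that table, no others carried either seed.

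In the control library Myh6 was by far the most abundant heavy chain. It had 628 FPKM, rank 119 of all genes in that library, and made up 80.7% of the 778 FPKM summed over the 7 heavy chains. Next came Myh9 at 62.5 FPKM, Myh7 at 45.2 FPKM and Myh11 at 27.4 FPKM, followed by Myh10 at 8.56 FPKM, Myh14 at 5.62 FPKM and Myh7b at 0.787 FPKM. The order in the Cre library, without Myh6, was Myh7 at 139.8 FPKM, Myh11 at 61.8 FPKM, Myh9 at 25.7 FPKM, Myh14 at 24.0 FPKM, Myh10 at 16.3 FPKM and Myh7b at 4.54 FPKM. Myh9 thus stood above Myh7 and Myh11 in the control and below them in the Cre library. Myh14 stood below Myh10 in the control and above it in the Cre library. With 1 library each there is no spread to judge neighbours in either order, and Myh9 and Myh14 were close in the Cre library. Transcript lengths of the 7 ran from 6113 bases (Myh6) to 7791 bases (Myh10), so length differs little within the family.

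**Figure D1:**
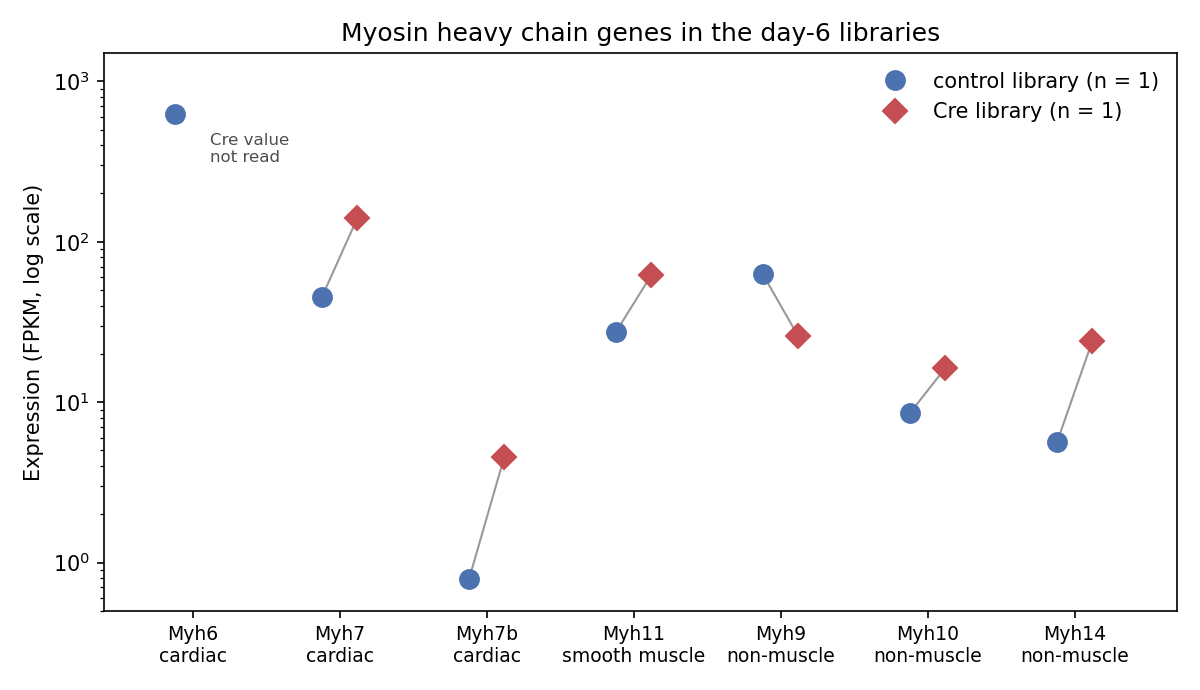
Expression of the 7 heavy chain genes with a row, in FPKM on a log axis, with circles for the control library and diamonds for the Cre library (1 library each). Myh9 slopes down from 62.5 to 25.7 FPKM, the other 5 lines slope up, and the Cre value of Myh6 was not read.

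The size rule called a gene when log2 of (FPKM + 1) differed by at least 1 between the libraries, which is 2-fold on that scale. By this size rule 4 of the 6 heavy chains were higher in the Cre library (Myh14, Myh7b, Myh7 and Myh11), against 6.08% of all 13408 genes measured. One, Myh9, was lower, against 10.4% of all genes, and Myh10 did not reach the rule. The same shares of all genes, 6.08% higher and 10.4% lower, are to be set beside every list count in this text. The median log2 ratio of the 6 was 1.38 and that of all genes was -0.07. The all-gene counts were 815 higher and 1396 lower, so 36.9% of the differences were towards the Cre library, and scaling both libraries to the same upper quartile turned this to 54.6%. With that scaling Myh10 also passed as higher. Centring ratios on heart muscle markers instead left 0 heavy chains past the rule as higher, with Myh9 still lower. Of the differences over all genes, 1.07% were then towards the Cre library. None of the 6 heavy chains with both values (0) is marked significant in the authors' deposited table, against 90 of its 15965 rows with both values. The p-values there set these 2 libraries, not the genotypes, against each other.

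**Figure D2:**
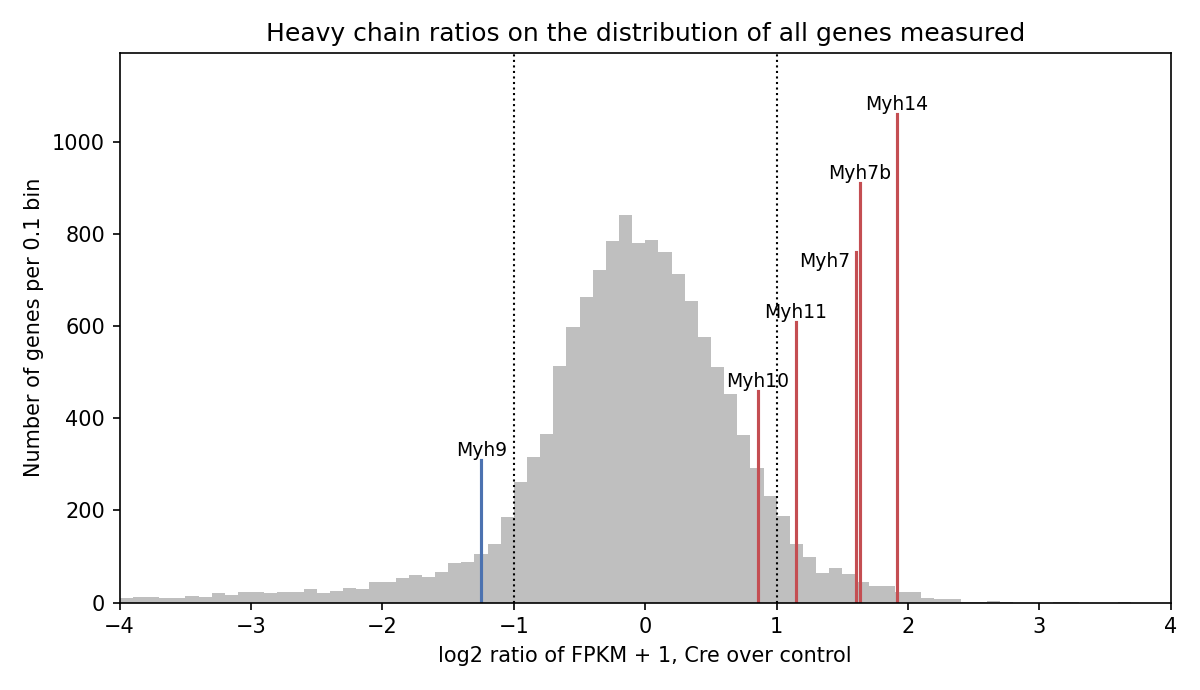
Histogram of log2 ratios of FPKM + 1, Cre over control, for the 13408 genes measured (grey, genes per bin), with a vertical line for each heavy chain and dotted lines at the 2-fold size. Line heights only separate the labels; Myh9 lies at -1.25 and the other 5 between 0.86 and 1.92, and the axis leaves out 113 genes below -4 and 2 genes above 4.

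Myh6, the adult cardiac motor, could be read in the control library only. Its 628 FPKM there stood 13.9 times above Myh7, so the alpha chain was 93.3% of the sum of both. The authors' deposited table gives the row the status HIDATA and lists the Cre library at 0, and that 0 was not read as a level. In mm9 Myh6 spans 55560757 to 55585444 of chromosome 14, and the locus of Myh7 begins 2179 bases further on. The balance of alpha and beta chain in the Cre library is therefore not known from these data.

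Myh7, the slow beta chain of heart and slow skeletal muscle, had 45.2 FPKM without Cre and 139.8 FPKM with Cre. This is a log2 ratio of 1.61, and 196 of the 13408 genes (1.46%, Myh7 included) had a ratio at least as large. In the authors' deposited table the difference had a p-value of 0.0513 (q = 0.786). The locus given for the Myh7 row runs from 55587623 to 55613386 of chromosome 14 in mm9. The Myh7 transcript resembles that of Myh6: 22.6% of its windows of 50 bases occur letter for letter in Myh6 transcripts, and 15.5% of its windows of 75 bases do. How the authors shared out reads between these paralogues is not given in the sources used here, so the split between Myh6 and Myh7 is uncertain in both libraries. The other heavy chains shared at most 1.12% of their 50-base windows with transcripts of other genes.

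The row D830015G02Rik has the same locus as Myh7, and RefSeq lists it as Mhrt, the antisense RNA. It had 21.5 FPKM without Cre and 49.3 FPKM with Cre, a log2 ratio of 1.16. Myh7 exceeded it 2.11 times in the control and 2.84 times in the Cre library. Both genes of this sense and antisense pair were thus above the size rule in the same library, although the authors' deposited table gives the antisense row a p-value of 0.798 (q = 0.999). Centring on heart muscle markers lowers every ratio by 0.92, which takes both genes below the size rule. In GRCm38 the genes lie on opposite strands, overlap over 3666 bases and share 484 exonic bases, counted over all their annotated transcripts. The transcript of the antisense row has 828 bases. Whether the counting used strand is not stated, so reads in the shared exons cannot be assigned to one strand and the rows may not be independent.

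Myh7b, a slow-type chain of heart and some skeletal muscle fibres, was the weakest of the heavy chains with a value in each library. It had 0.787 FPKM without Cre and 4.54 FPKM with Cre, a log2 ratio of 1.63 that became 0.72 with a pseudocount of 5 FPKM. The authors' deposited table gives a p-value of 0.447. Its row shares a locus (mm9 chromosome 2, 155436947 to 155518120) with Trpc4ap, an adaptor in protein breakdown, which ran the other way at 59.8 FPKM without Cre and 32.7 FPKM with Cre. Trpc4ap stood 76.0 times above Myh7b in the control and 7.19 times above it in the Cre library, and the genes overlap by 37 exonic bases on opposite strands in GRCm38.

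Markers of heart muscle cells ran in the same direction as Myh7 and Myh7b, the cardiac heavy chains with a value in both libraries. All 18 such markers were above equal expression and 7 of 18 were at least 2-fold higher, with a median log2 ratio of 0.92 and a summed level of 16762 FPKM without Cre and 25176.5 FPKM with Cre. Calcium release from the reticulum runs through Ryr2, which had 18.0 FPKM without Cre and 67.0 FPKM with Cre. Tnnt2 and Tnni3, cardiac troponins, had 1549 and 2070 FPKM without Cre and 2887 and 2751 FPKM with Cre. Ratios centred on this list left Myh7 at 0.68 and Myh7b at 0.71, below the size rule. Of 5 ventricular markers measured 2 were higher, the ventricular light chains Myl3 and Myl2, and the median was 0.76, or -0.17 when centred in this way. Which share of the Myh7 difference goes with more heart muscle RNA in the Cre library was not tested.

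Skeletal muscle genes were mixed. Of 19 markers listed 14 had a row and 12 were measured, with 3 higher, 1 lower and a median log2 ratio of 0.54, or -0.39 when centred on heart muscle markers. Their summed level was 505 and 739 FPKM, mostly from Ckm, muscle creatine kinase, at 302 and 438 FPKM and the light chain gene Myl1 at 156 and 228 FPKM. Tnni2, a fast troponin, had 3.66 FPKM without Cre and 19.9 FPKM with Cre, and Tnnt3, another fast troponin, had 2.13 and 6.08 FPKM. Mylpf, the fast regulatory light chain, was lower at 9.27 FPKM without Cre and 0.691 FPKM with Cre. Acta1, skeletal actin, had 1.57 and 3.00 FPKM.

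Myh11, the heavy chain of contractile smooth muscle, had 27.4 FPKM without Cre and 61.8 FPKM with Cre. The log2 ratio was 1.14, and 569 of the 13408 genes (4.24%) had one at least as large. The authors' deposited table gives a p-value of 0.139 (q = 0.999). Centred on heart muscle markers the log2 ratio was 0.22, below the size rule. Myh11 (mm9 chromosome 16, 14194619 to 14291501) overlaps no other row.

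Other genes of vessel walls ran with Myh11. Of 16 smooth muscle and pericyte markers 7 were higher, 0 were lower and 15 were above equal expression, with a median log2 ratio of 0.91 (-0.01 when centred on heart muscle markers) and summed levels of 731 and 1206 FPKM. Acta2 and Tagln, smooth muscle actin and transgelin, had 319.8 and 259 FPKM without Cre and 528 and 336 FPKM with Cre, short of the rule, and Cnn1, calponin, had 26.4 and 45.5 FPKM, also short of it. Above the rule were Rgs5, a pericyte signalling regulator, at 25.4 and 99.3 FPKM, Myocd, the coactivator of smooth and heart muscle genes, at 1.44 and 6.97 FPKM, and Actg2, enteric smooth muscle actin, at 10.2 and 28.3 FPKM. The kinase Mylk, which phosphorylates the regulatory light chain of this myosin, had 5.96 and 14.5 FPKM. How far the Myh11 difference goes with a larger share of vessel wall in the Cre library was not tested. None of these markers was listed at 0.

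Among the non-muscle chains the summed level differed little as deposited, at 76.7 FPKM without Cre and 66.0 FPKM with Cre, while the makeup differed. Centring on heart muscle markers would set the Cre sum further below the control sum. Rescaling a library leaves the shares within it unchanged. Myh9 was 81.5% of the non-muscle sum in the control and 39.0% in the Cre library. Myh10 went from 11.2% to 24.7% and Myh14 from 7.33% to 36.3%. The control library was thus dominated by myosin IIA, and the Cre library held IIA and IIC at nearly equal levels (a Myh9 to Myh14 ratio of 11.1 in the control and 1.07 in the Cre library).

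**Figure D3:**
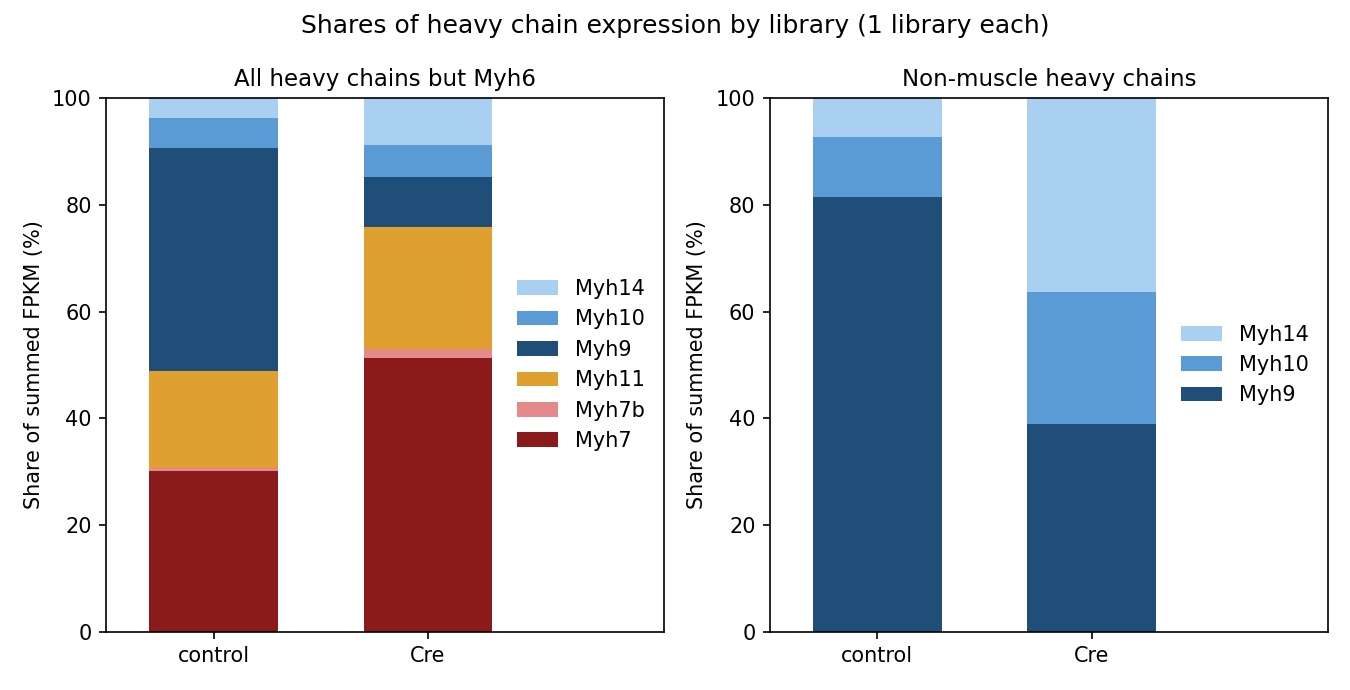
Stacked shares of summed FPKM in the control and the Cre library, for all heavy chains but Myh6 (left) and for the 3 non-muscle chains (right), 1 library each. On the left Myh7 takes 30.1% and 51.4% and Myh9 41.6% and 9.46%; on the right Myh9 takes 81.5% and 39.0%.

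CpG content of the promoters separated the cardiac from the non-muscle genes, and 4 windows are printed: the adjacent cardiac pair Myh6 and Myh7, and Myh9 and Myh14, non-muscle genes whose levels ran in opposite directions. Each window runs from 250 bases before to 50 bases after a RefSeq start (GRCm38.p6, 5′ to 3′ on the gene's strand), and 6 of the 7 heavy chains with a row had one. Capitals mark matches on either strand to any of 7 motifs: the box TATAAA, the box CCAAT, the GC box with the letters GGGCGG, the muscle motif MCAT with the letters CATTCC, the GATA factor motif with the letters AGATAA, the CArG box and the MEF2 motif. The windows are chr14:54966558-54966857 for Myh6, chr14:54994577-54994876 for Myh7, chr15:77842126-77842425 for Myh9 and chr7:44670794-44671093 for Myh14, all on the minus strand.
Myh6: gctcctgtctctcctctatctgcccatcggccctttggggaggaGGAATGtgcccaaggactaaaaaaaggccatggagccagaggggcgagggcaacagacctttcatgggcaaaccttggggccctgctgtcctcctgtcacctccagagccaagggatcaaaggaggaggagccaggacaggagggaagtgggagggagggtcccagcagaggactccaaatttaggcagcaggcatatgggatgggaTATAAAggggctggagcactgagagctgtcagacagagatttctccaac
Myh7: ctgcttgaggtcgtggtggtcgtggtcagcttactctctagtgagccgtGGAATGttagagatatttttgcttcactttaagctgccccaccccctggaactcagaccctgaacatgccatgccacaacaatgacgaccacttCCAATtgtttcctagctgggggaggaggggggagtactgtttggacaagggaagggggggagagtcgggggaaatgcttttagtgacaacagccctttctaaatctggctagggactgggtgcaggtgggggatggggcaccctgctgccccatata
Myh9: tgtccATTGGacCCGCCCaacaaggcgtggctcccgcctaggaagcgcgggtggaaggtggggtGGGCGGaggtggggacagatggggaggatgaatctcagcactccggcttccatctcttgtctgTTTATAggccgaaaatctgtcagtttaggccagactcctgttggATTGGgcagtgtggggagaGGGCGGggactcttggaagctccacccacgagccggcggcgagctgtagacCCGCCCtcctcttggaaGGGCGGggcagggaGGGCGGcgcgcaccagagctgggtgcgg
Myh14: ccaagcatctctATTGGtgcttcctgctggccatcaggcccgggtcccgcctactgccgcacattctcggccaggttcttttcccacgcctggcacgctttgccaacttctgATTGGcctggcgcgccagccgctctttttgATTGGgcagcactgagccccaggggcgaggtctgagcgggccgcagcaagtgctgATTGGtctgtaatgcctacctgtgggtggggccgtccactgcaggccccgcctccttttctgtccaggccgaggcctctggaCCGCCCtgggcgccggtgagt
Myh6 and Myh7 each held 1 MCAT match, which 14.7% of all 32851 windows held, and Myh6 held a TATA box (13.6% of windows). Myh9 held 6 GC boxes, 2 CCAAT boxes and a TATA box, and Myh14 held 1 GC box and 4 CCAAT boxes. A CCAAT box stood in 37.4% and a GC box in 35.7% of all windows. The CpG count was 2 in Myh6, 5 in Myh7 and 4 in Myh7b, but 19 in Myh9, 18 in Myh10 and 18 in Myh14, around a median of 7 over all windows. No CArG box (1.63% of windows) or MEF2 match (3.19%) was found in these windows. The shown Myh14 start is not that of the transcript named in its row, and a matching motif is only a run of letters. Myh7 has a second RefSeq window, chr14:54994500-54994799, with 0 MCAT matches and a CpG count of 2.

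Myh9, the motor of myosin IIA in blood cells, endothelium and many other cells, had 62.5 FPKM without Cre and 25.7 FPKM with Cre. The log2 ratio was -1.25, and 1024 of the 13408 genes (7.64%) had one at least as low. The authors' deposited table gives a p-value of 0.111. Myh9 lies on chromosome 15 of mm9 from 77591018 to 77672545. It stayed at least 2-fold lower under all 8 other settings, between -2.17 and -1.03.

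Markers of T cells and thymus were lower in the same library, with a median log2 ratio of -6.49 over 18 genes. Cd3d, Cd3e and Cd3g, chains of the T cell receptor complex, had 113, 113 and 214 FPKM without Cre and 0.303, 0.239 and 0.627 FPKM with Cre. Ptprc, a surface phosphatase of all white blood cells, had 179 and 4.52 FPKM. The cell cycle list was lower in full, 20 of 20 (median -3.69), and Anln, a partner of myosin in the cleavage furrow was lower at 15.6 and 3.91 FPKM. Macrophage markers did not run this way as a group, with 1 of 10 lower and a median of 0.15, and endothelial markers had 0 of 12 past the rule and a median of 0.47. Centred on heart muscle markers these medians were -0.78 and -0.45. The part of T cell RNA in the Myh9 difference was not tested.

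Myh10, the motor of myosin IIB in fibroblasts, neurons and embryonic heart, had 8.56 FPKM without Cre and 16.3 FPKM with Cre. Its log2 ratio of 0.86 fell short of the size rule, and 1150 of the 13408 genes (8.58%) had one at least as large. The authors' deposited table gives a p-value of 0.241. Myh10 (mm9 chromosome 11, 68505416 to 68630126) was the one heavy chain whose direction turned with a scaling, at -0.07 when ratios were centred on the heart muscle markers. Fibroblast markers, beside it, had a median of 0.22 (-0.71 when so centred) with 1 of 12 higher: Pdgfra, a growth factor receptor, at 14.1 and 34.7 FPKM, while the collagen gene Col1a1 had 118 and 159 FPKM.

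Myh14, the motor of myosin IIC in epithelia, had the largest ratio of the 6 heavy chains on the log2 scale of FPKM + 1. It had 5.62 FPKM without Cre and 24.0 FPKM with Cre, a log2 ratio of 1.92, and 77 of the 13408 genes (0.574%) had one at least as large. In the authors' deposited table its p-value of 0.0136 was the smallest of the family, with a q-value of 0.404. Centred on heart muscle markers the log2 ratio was 0.99, just below the size rule. Myh14 lies on chromosome 7 of mm9 from 51861189 to 51920873.

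Epithelial and lung genes stood beside Myh14. Of 13 epithelial markers 7 were higher and 2 were lower, with a median log2 ratio of 1.03, or 0.11 when centred on heart muscle markers. In all 8 were above and 5 below equal expression, and summed levels were 293 and 279 FPKM. Epcam fell short of the rule at 8.10 and 14.1 FPKM, and Krt5, Krt14 and Cldn4 were below equal expression. Cdh1, the adhesion protein of epithelial junctions, had 7.11 FPKM without Cre and 21.7 FPKM with Cre. Cldn3 and Cldn7, claudins of tight junctions, had 7.92 and 2.65 FPKM without Cre and 30.7 and 11.5 FPKM with Cre, whereas the keratins Krt18 and Krt8 were lower. Lung markers had a median of 2.16, led by Sftpc, a surfactant protein, at 0.248 and 90.5 FPKM. The part of airway epithelium in the Myh14 difference was not tested.

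The genes nearest to each heavy chain in both libraries, by Euclidean distance of log2(FPKM + 1) over 2 libraries, are given as a description. They do not assign a heavy chain to a cell type. Nearest to Myh7 was Myom1, at 45.2 FPKM without Cre and 138 FPKM with Cre (distance 0.02). It was followed by Epas1 and Cyp2a5. Nearest to Myh14 were Sftpd at 5.23 and 24.6 FPKM, then Gabrp at 5.55 and 22.4 FPKM and Slc8a1 at 6.09 and 24.4 FPKM. Their distances were nearly equal, at 0.096, 0.097 and 0.103. Nearest to Myh9 were Bub3, at 65.3 and 26.8 FPKM, then Ppp6r1 and Slc9a3r1. Myh11 had Mtus1, Pdlim3 and Appl2, Myh10 had Cdc42bpb, Ank1 and Bmpr2, and Myh7b had Spag16, Ttll6 and Cldn8.

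Most partners of the heavy chains in the thick filament were higher, as Myh7 was. The M-band holds thick filaments in register. Of 8 measured thick filament and M-band genes 5 were at least 2-fold higher and 0 lower, with a median log2 ratio of 1.45, or 0.53 and below the size rule when centred on heart muscle markers. Mybpc3, cardiac myosin binding protein C, had 55.4 FPKM without Cre and 161 FPKM with Cre. Myosin folding and turnover genes had 3 of 10 higher and 0 lower, against 6.08% and 10.4% of all genes. Their median was 0.75, or -0.17 when so centred. The higher ones were Unc45b, the muscle chaperone of myosin, at 23.0 and 52.7 FPKM, and the ubiquitin ligases Trim55 and Trim63 at 16.6 and 20.8 FPKM without Cre and 40.2 and 45.3 FPKM with Cre. The general chaperones Hsp90aa1 and Hsp90ab1 had ratios of -0.02 and 0.04.

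The light chains were mixed. Of 11 measured genes 2 were higher, 2 were lower and the median log2 ratio was 0.21, or -0.71 when centred on heart muscle markers. The higher pair was ventricular: Myl3 had 304 FPKM without Cre and 884 FPKM with Cre, and Myl2 had 572 and 1280.2 FPKM. The atrial light chains Myl7 and Myl4, by far the most abundant, had 5603 and 3310.0 FPKM without Cre and 6940.2 and 3838 FPKM with Cre, with ratios of 0.31 and 0.21. The lower pair was Mylpf and Myl10, a light chain known from lymphocyte precursors, at 7.64 FPKM without Cre and 0.0544 FPKM with Cre. T cell markers were lower in the same library, and their part was not tested.

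Genes that control heavy chain transcription had 5 of 21 higher and 1 lower, against 6.08% and 10.4% of all genes. Their median log2 ratio was 0.52, or -0.41 when centred on heart muscle markers. Beside Myocd, the higher ones were Tead1, which binds MCAT sites, at 6.80 and 18.3 FPKM, Sox6, a repressor of slow fibre genes, at 2.40 and 7.40 FPKM, Mef2c at 6.10 and 13.4 FPKM, and the thyroid hormone receptor Thrb at 3.36 and 7.80 FPKM. Thyroid hormone is the classical activator of Myh6 and repressor of Myh7. Nfatc3, a calcineurin target that T cells also use, was the lower one at 70.4 and 9.35 FPKM. Among 17 genes that regulate smooth and non-muscle myosin 1 was higher (Mylk) and 1 lower (Anln), against 6.08% and 10.4% of all genes. These counts do not set the list apart from all genes. Its median was 0.04, or -0.88 when so centred. That list mixes activating kinases with Ppp1cb, Ppp1r12a and Ppp1r12b, subunits of the phosphatase that switches the motor off, which had ratios of 0.04, 0.04 and 0.98. Rhoa and the kinases Rock1 and Rock2 had ratios of -0.32, -0.44 and 0.26.

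**Figure D4:**
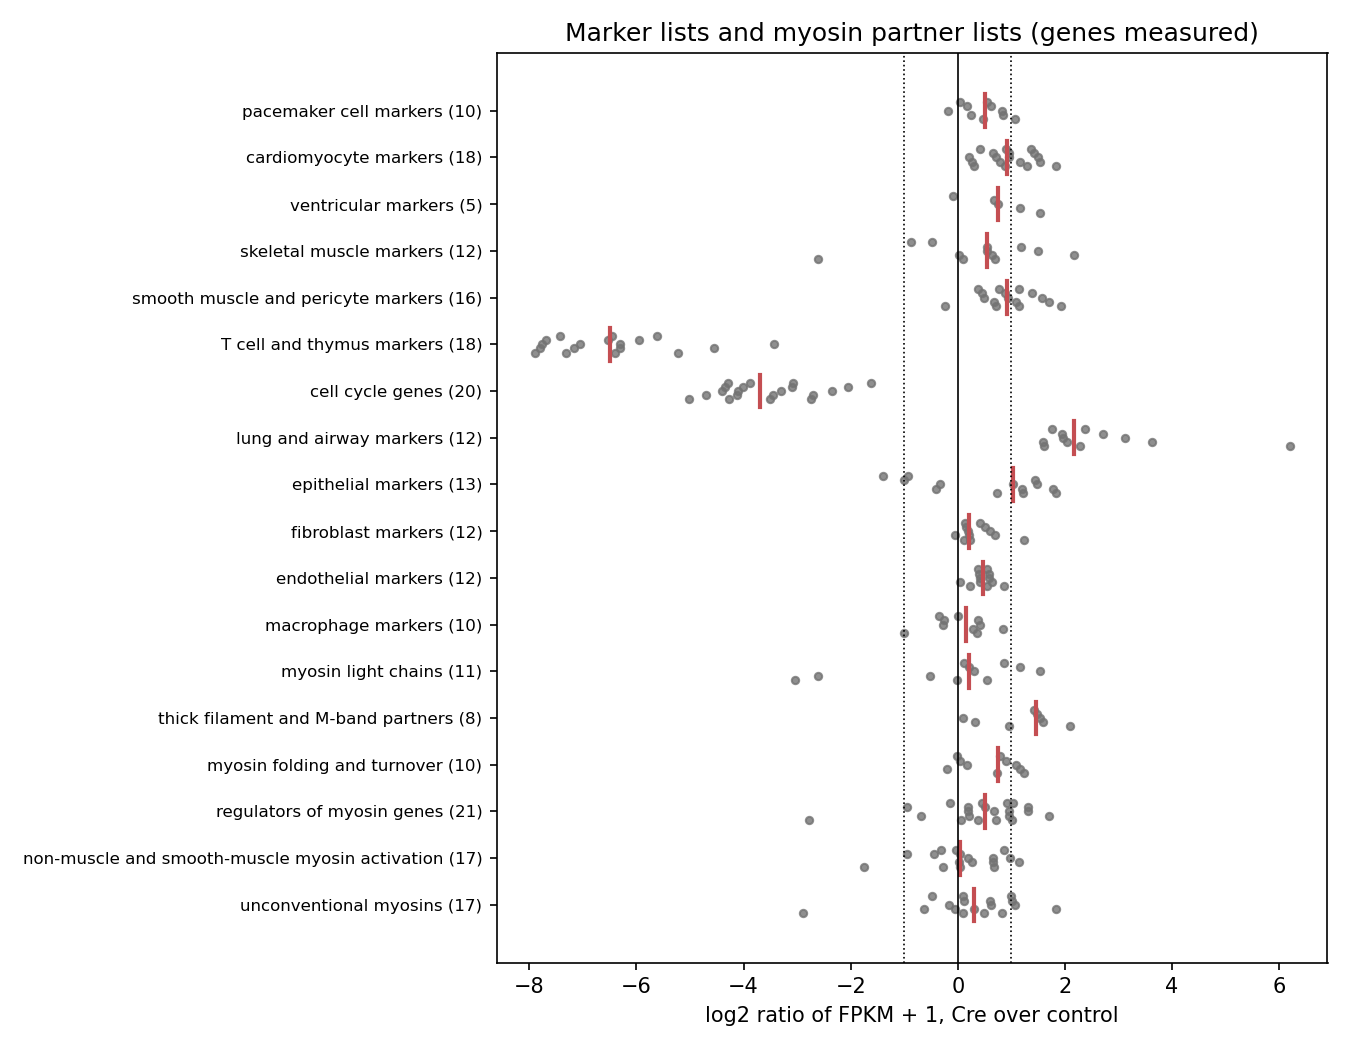
Each point is a measured gene and each vertical bar the median of its list, on the log2 ratio of FPKM + 1, Cre over control, with the number of genes in parentheses and dotted lines at the 2-fold size. Thick filament partners centre on 1.45, cardiomyocyte and smooth muscle markers on 0.92 and 0.91, lung markers on 2.16 and T cell and thymus markers on -6.49; centring on the cardiomyocyte markers would move every list down by 0.92.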

How the data were processed

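The submitters' processing notes name TopHat, Bowtie and Cufflinks and the build mm9. They give no versions, and the annotation, the use of strand and the treatment of reads matching several genes are not stated in the labels or headers. For each gene and library the deposited table holds 1 value, read as FPKM because its columns have the Cufflinks layout per the file headers. Beside it stand the authors' log2 fold change, a test score, the p-value and the q-value. Because FPKM is relative to the library, very abundant transcripts in one library depress its other genes. Read depth is unknown.

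Rows with the status HIDATA (2, Myh6 and Nppa) were treated as missing, 21 symbols turned into dates were restored by RefSeq accession, and 31 small-RNA rows were left out. Log2 ratios of FPKM + 1 were computed for every gene averaging 1 FPKM or more, with Python 3.11.15 and pandas 2.3.3, and checked on simulated data. No test was run with 1 library per group. The heavy chains and gene lists were chosen with earlier results of these data known. All heavy chains and the 3 nearest genes per heavy chain were named. From each list, names were drawn from the first 3 markers and up to 4 genes of largest ratio, but not all of these were named. Other genes were named after their values were seen. Transcripts and exons came from GENCODE M21 and other sequences from RefSeq, both on GRCm38, by symbol or accession. Alternatives were pseudocounts of 0.1 and 5 FPKM, no minimum or one of 5 FPKM, upper-quartile and TPM scaling, centring on heart muscle markers, and HIDATA rows kept.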

Additional observations from a re-analysis of the deposited data

How the results depend on the processing

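No paired analysis was possible because each genotype has 1 library, and for the same reason no library could be left out. Over 8 alternatives (7 for Myh7b) Myh9 stayed lower, and Myh7, Myh7b, Myh11 and Myh14 stayed above equal expression, within ranges of 0.68 to 1.83, 0.71 to 2.39, 0.22 to 1.36 and 0.99 to 2.12; Myh10 ranged from -0.07 to 1.06. Centring on heart muscle markers, which shifted the median of all genes from -0.07 to -0.99, left 0 heavy chains past the size rule as higher, with Myh14 at 0.99 just short of it, and gave 72 genes higher and 6658 lower (1.07% higher). Keeping HIDATA rows as listed made 2 heavy chains lower, since Myh6 then counts with its 0. With 0.1 as pseudocount 1262 genes were higher, and with 5 as pseudocount 238 were higher and 804 lower, so 22.8% were higher. A minimum of 5 FPKM, which drops Myh7b, gave 449 higher, and upper-quartile scaling, which moved the median to 0.13, gave 1307 higher and 1086 lower. Of 144 alternative list medians 137 stayed on their side of the 2-fold size and 7 crossed it. Centring turned 12 of the 18 list medians from above to below 0, and the other 7 alternatives turned 0 of them. The precision of weak genes such as Myh7b is limited by a depth that the table does not give.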

Other observations

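The unconventional myosins, motors that carry membranes and cargo rather than build filaments, were mixed. Of 24 listed genes 17 were measured, 3 of them higher in the Cre library and 1 lower, against 6.08% and 10.4% of all genes. Their median log2 ratio was 0.30, or -0.62 when ratios were centred on heart muscle markers. Myo18b, a sarcomere protein of heart and skeletal muscle, had 5.19 FPKM without Cre and 21.2 FPKM with Cre. Myo5b, a carrier of recycling vesicles in epithelia, had 2.26 and 5.85 FPKM, and Myo1d had 4.64 and 10.4 FPKM. Myo1g, a myosin of lymphocytes, was the lower one at 16.7 and 1.39 FPKM, beside T cell markers that were lower in the same library. The part of T cell RNA in that difference was not tested.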
